A study of Mus musculus with 12 samples.

Results

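The proximal signalling machinery of the T cell receptor (TCR) was followed through 37 genes across 4 subsets of mouse CD4 T cells. The genes were chosen by name, as a list of known receptor subunits, kinases, adaptors, modulating surface proteins and negative regulators, out of 54532 entries in the count table, and all 37 had enough reads to be tested. Total RNA was sequenced from 12 libraries of freshly sorted cells, 3 per subset, from mixed spleen and lymph node of untreated mice of the genotype wildtype C57BL/6 Foxp3-GFP polyclonal. All 4 subsets share this genotype and the absence of treatment, and the ages of the mice and the pooling of animals are not given in the labels. Anergic cells were CD44high, FOXP3–, CD73high, FR4high and NRP1+. Treg cells were FOXP3+ and CD25+. Teff cells were CD44high, FOXP3–, CD73low and FR4low, and Naive cells were CD44low. The subsets are thus defined by sorted phenotype, and Foxp3-GFP, a reporter of the Treg lineage factor, marks cells with FOXP3 at the time of the sort. Nothing in the labels ties the replicates of a subset to different animals. A p-value here therefore covers the spread among these libraries alone, and that spread may be technical.

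The TCR has no enzyme activity of its own. Its antigen-binding chains are carried to the surface by the CD3 and zeta chains, whose cytoplasmic tails are phosphorylated by the SRC-family kinases LCK and FYN. The kinase ZAP-70 docks on these tails and phosphorylates the scaffolds LAT and SLP-76, on which phospholipase C gamma 1 and the exchange factors for RAS and RAC are brought together. Phosphatases and small adaptors counter these steps, and cells rendered anergic are known for poor transmission of the signal through them.

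Libraries held 6909035 to 9527897 counts. Ribosomal and small RNA dominated 9 very abundant entries that made up 28.1 to 39.6% of each library. The share was greatest in Anergic replicate 3, which also had the lowest TMM scaling factor (0.871). Mitochondrial rRNA made up 13.9 to 16.2% of counts in Anergic libraries, above all others, which held 11.8 to 12.3% in Treg, 10.95 to 12.3% in Teff and 10.1 to 10.6% in Naive libraries. Of the sort markers, Nt5e, which encodes CD73, averaged 256 CPM in Anergic and 57.5 in Teff cells. Foxp3 averaged 18.2 CPM in Anergic, 543 in Treg and 0.734 in Teff cells, against 1.36 in Naive cells, so that Anergic cells, although sorted as FOXP3–, held more Foxp3 transcript than Teff or Naive cells in every library. Markers of other cell types were unequal between subsets. The summed level of 7 NK and innate-like markers ran from 29.8 to 41.9 CPM in Anergic and 2.59 to 4.45 in Treg libraries. It ran from 208 to 272 CPM in Teff and 0.455 to 1.24 in Naive libraries. In Teff cells Zbtb16 averaged 99.9, Nkg7 48.2, Klrk1 41.1 and Klrb1c 38.9 CPM, while Klra1 averaged 2.07 and Tyrobp 0.583. In Anergic cells Zbtb16 averaged 23.1 CPM. Ncr1 was at or near 0 in every library. Of the 7 B cell markers Ighm made up most of the sum. The sum ran from 220.0 to 282 CPM in Anergic, 408 to 498 in Treg, 180.3 to 197 in Teff and 198 to 226 in Naive libraries. Cd22 averaged 27.9 CPM in Anergic, 2.87 in Treg and 12.6 in Teff cells, against 0.101 in Naive cells. Cd79b averaged 1.87 CPM in Anergic, 5.97 in Treg and 0.739 in Teff cells, against 0.639 in Naive cells. Ms4a1, which encodes CD20, was under 1 CPM in each of the 12 libraries. The part of these cell-type transcripts in the results was not tested, and in such bulk samples fewer cells of a type and less RNA per cell cannot be told apart.

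The 37 genes were well expressed, with a median level of 197 CPM (counts scaled to a common library size by TMM) against 15.4 over the 13393 genes tested. Levels of different genes were set side by side as CPM per kilobase of exon. On that scale Tec was the lowest member in every subset, at 2.05 in Anergic, 3.42 in Treg and 4.01 in Teff cells, against 3.28 in Naive cells. The highest member was Cd4 in Anergic cells (303 CPM per kilobase), Cd2 in Treg cells (342), Cd3g in Teff cells (192) and Cd2 in Naive cells (214).

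**Figure D1:**
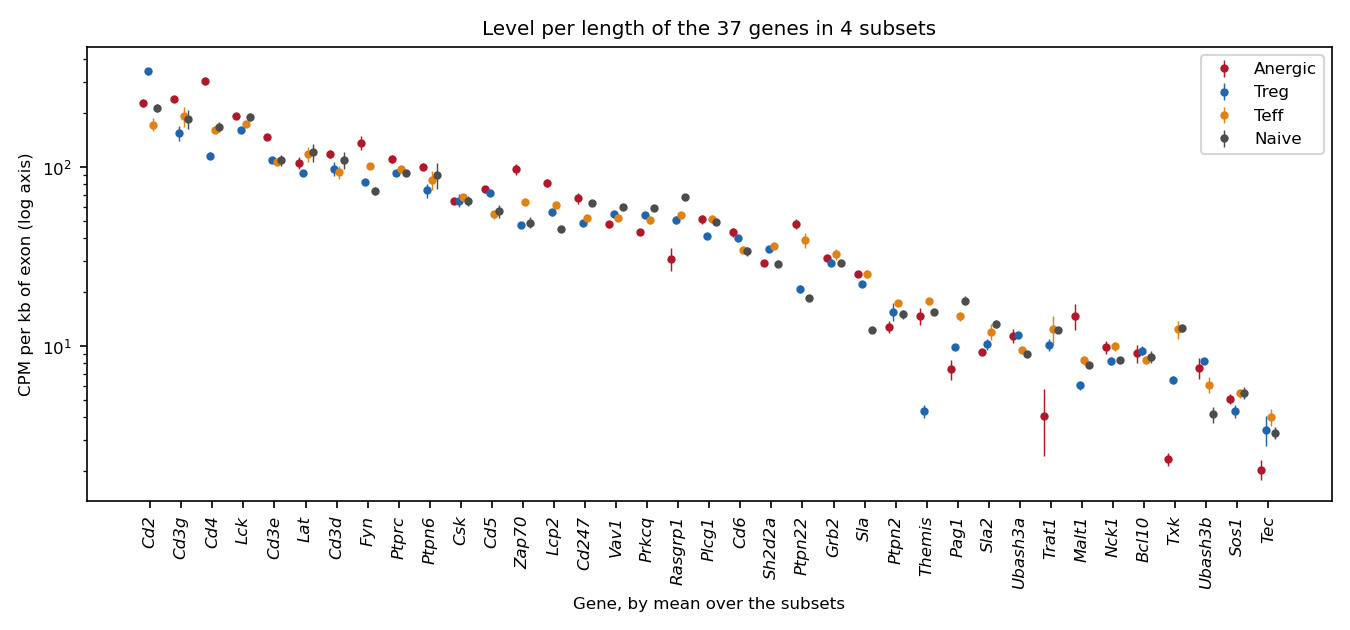
Level of each of the 37 genes in CPM per kilobase of exon (log axis), genes ordered along the horizontal axis by their mean over subsets. Points are subset means and bars the SD over 3 libraries; Txk, Trat1 and Rasgrp1 stand low in Anergic cells and Themis stands low in Treg cells.

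Differences are given as log2FC, the log2 fold change of the first-named subset over the second, with its standard error (SE). A gene was called higher or lower where the edgeR quasi-likelihood test gave a Benjamini-Hochberg adjusted p under 0.05 over all 13393 genes. Between Anergic and Teff cells 26 of the 37 genes were called, 16 higher and 10 lower in Anergic, where 26.6% of all genes were called. Between Anergic and Treg cells 28 were called, 18 higher and 10 lower in Anergic, against 31.0% of all genes. Between Anergic and Naive cells 24 were called, 15 higher and 9 lower in Anergic, against 46.2% of all genes. Between Teff and Naive cells 16 were called, 9 higher and 7 lower in Teff, against 34.9% of all genes. Treg cells differed from Naive cells in 22 genes, 8 higher and 14 lower, against 32.8% of all genes, and from Teff cells in 19, 5 higher and 14 lower, against 29.1%. With the 9 abundant entries removed, the mitochondrial rRNA that was highest in Anergic libraries among them, the higher and lower members in Anergic cells numbered 16 and 10 against Teff, 18 and 10 against Treg, and 15 and 10 against Naive. The removal shifted log2 fold changes of all genes by a median of only -0.0021, 0.0031 and -0.0040. The part of the higher mitochondrial rRNA share in the Anergic differences was not tested. The 6 comparisons share libraries and are not independent of one another.

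Calls are more frequent among abundant genes, so the share was also taken over genes averaging 50 CPM or more, a line chosen after the data were seen. Of the 30 members above it, 21 were called between Anergic and Teff cells against 37.9% of all such genes, and 24 between Anergic and Treg cells against 46.9%. For Treg cells, 20 of 30 were called against Naive cells beside 46.1% of such genes, and 17 of 30 against Teff cells beside 41.6%. The members were close to the background in the other comparisons, with 18 of 30 between Anergic and Naive cells against 60.4% and 14 of 30 between Teff and Naive cells against 48.0%. The median log2 fold change of the 37 genes was 0.12 for Anergic over Teff, 0.19 for Anergic over Treg, 0.09 for Anergic over Naive, 0.03 for Teff over Naive, -0.03 for Treg over Naive and -0.16 for Treg over Teff, beside medians over all genes between 0.00 and 0.01.

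Scaling by library totals alone lowers every Anergic-over-Treg log2 fold change by about 0.13 (median over all genes) and moves the balance of higher and lower calls. Under it the higher and lower members numbered 11 and 11 for Anergic over Teff, 11 and 10 for Anergic over Treg, 10 and 3 for Teff over Naive and 10 and 8 for Treg over Naive. All genes called under it split 1218 higher and 2276 lower for Anergic over Teff, and 1324 and 3027 for Anergic over Treg. They split 2718 and 1485 for Teff over Naive, and 2925 and 1126 for Treg over Naive. Of the 135 calls made over the 6 comparisons, 104 held under all 21 alternative settings.

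**Figure D2:**
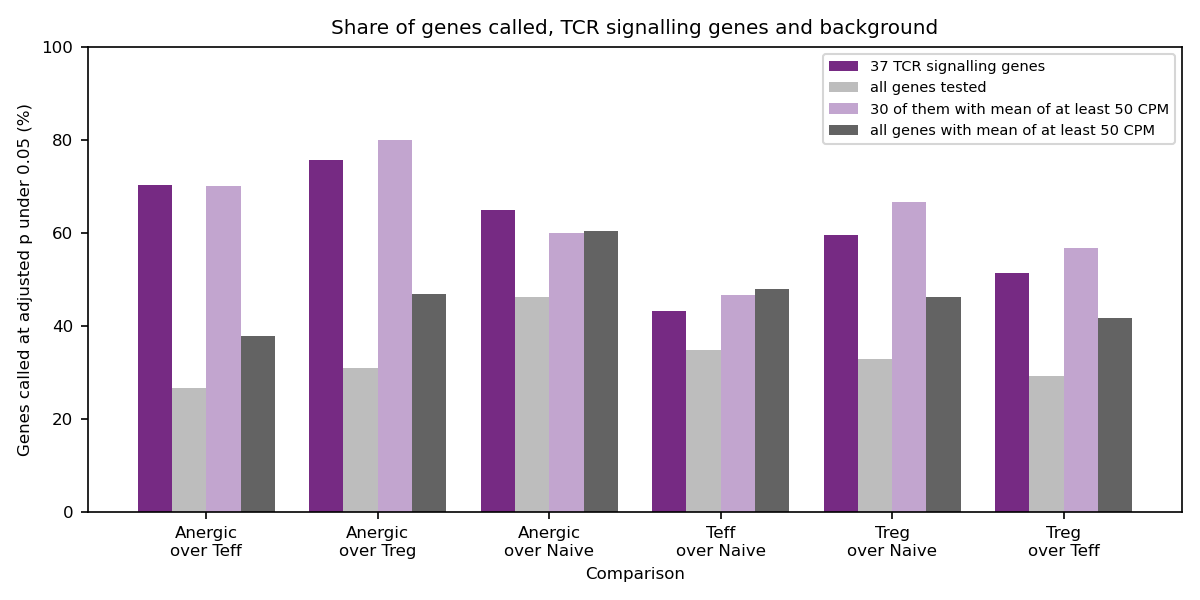
Percentage of genes called at adjusted p under 0.05 in each comparison, for the 37 genes, all genes tested, the 30 members averaging 50 CPM or more, and all genes above that line. Among the more abundant genes the members stand above the background for Anergic over Teff (37.9% of all such genes) and near it for Anergic over Naive (60.4%).

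Most differences were small. The ratio of the highest to the lowest subset mean had a median of 1.38 over the 37 genes, stayed under 1.5 in 21 of them and reached 2 in 10, namely Txk, Themis, Trat1, Cd4, Ptpn22, Malt1, Pag1, Rasgrp1, Sla and Zap70. The mean was highest in Anergic cells for 16 genes (43.2%, beside 28.0% of all genes tested) and in Treg for 4 (10.8% beside 20.3%). It was highest in Teff for 9 (24.3% beside 21.1%) and in Naive for 8 (21.6% beside 30.6%). The lowest mean was in Anergic cells for 10 genes (27.0%, beside 27.6% of all genes) and in Treg for 13 (35.1% beside 20.3%). It was in Teff for 5 (13.5% beside 20.2%) and in Naive for 9 (24.3% beside 31.9%).

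**Figure D3:**
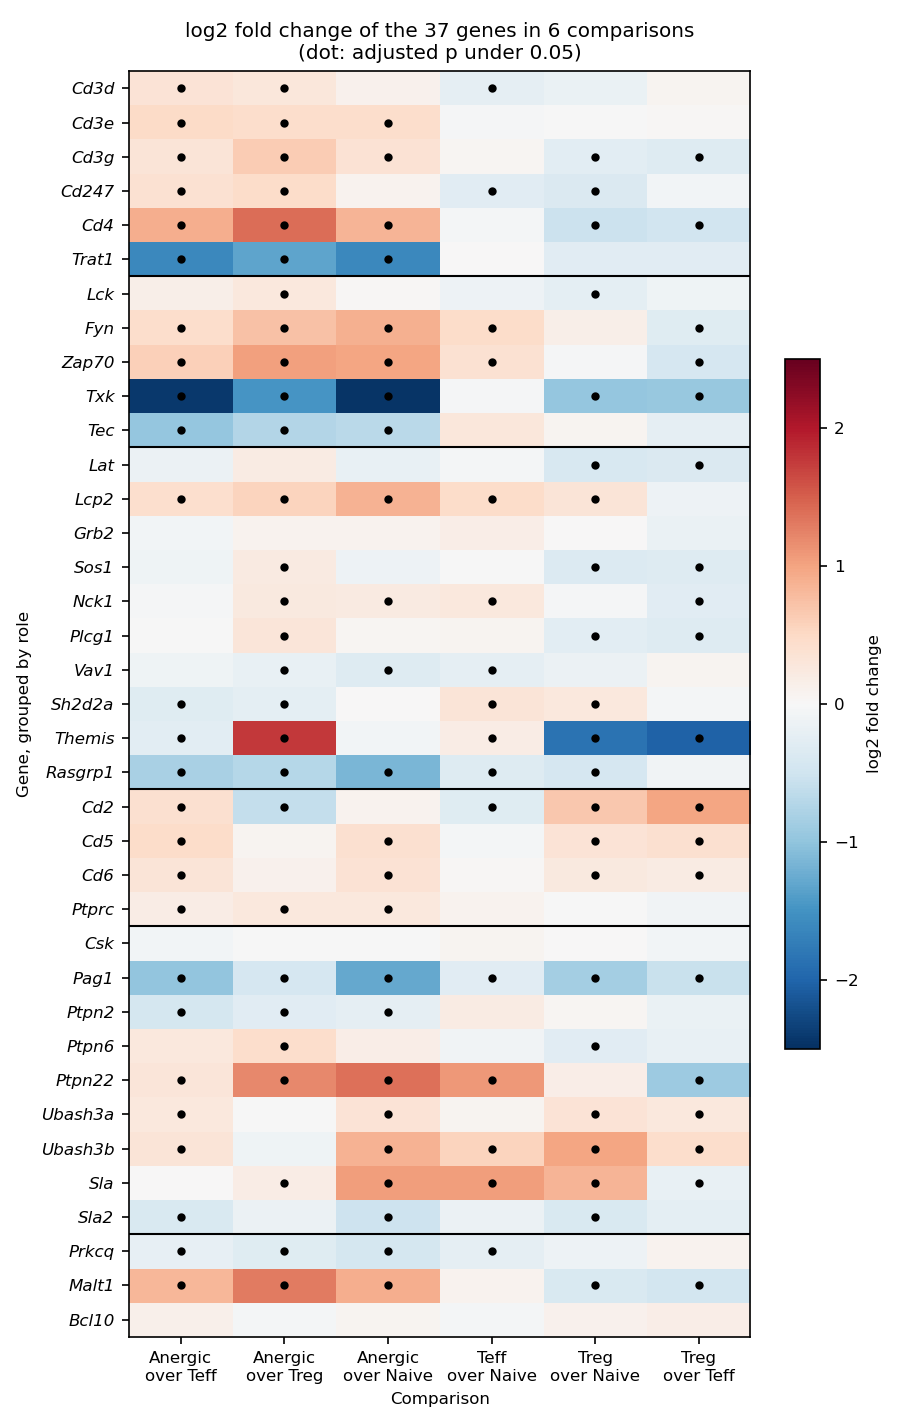
log2 fold change of each of the 37 genes (rows, grouped by role) in the 6 comparisons (columns), first-named subset over the second; a dot marks adjusted p under 0.05. Txk, Trat1, Rasgrp1 and Pag1 are lower and Cd4, Zap70 and Malt1 higher in all 3 Anergic columns, and Themis is lower in both Treg columns.

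The receptor subunits were higher in Anergic cells than in Teff and Treg cells, with a single exception, Trat1. Of the 6 genes of the receptor complex and coreceptor, 5 rose and 1 fell in Anergic cells against Teff. The same count held against Treg, and against Naive 3 rose and 1 fell. Over all genes 13.9% rose and 12.7% fell against Teff, 15.6% and 15.3% against Treg, and 25.0% and 21.3% against Naive. Against Naive cells 2 of the 6 fell in Teff and 3 fell in Treg, beside 15.7% and 13.9% of all genes. Cd3e, an invariant CD3 chain (chr9:44998740-45009627), had 604, 579 and 626 CPM in Anergic and 434, 442 and 459 in Treg libraries. Cd3e was at 420.0, 447 and 436 CPM in Teff and 412, 471 and 453 in Naive libraries. All 3 Anergic libraries stood above the other 9, which overlapped one another. Anergic cells exceeded Teff cells by 1.39-fold (log2FC 0.47, SE 0.0633, adjusted p = 2.69e-06), Treg by 1.36-fold (log2FC 0.44, SE 0.0632, adjusted p = 6.57e-06) and Naive by 1.35-fold (log2FC 0.44, SE 0.0634, adjusted p = 3.75e-06).

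Cd3g, the CD3 gamma chain (chr9:44969572-44980431), had 751, 785 and 816 CPM in Anergic and 465, 559 and 488 in Treg libraries. Cd3g was at 538, 685 and 658 CPM in Teff and 525, 646 and 652 in Naive libraries. The Anergic libraries were again above all others, while Teff and Naive libraries overlapped each other and both overlapped Treg. The excess in Anergic cells was 1.56-fold over Treg (log2FC 0.64, SE 0.0902, adjusted p = 5.04e-06), 1.29-fold over Naive (log2FC 0.37, SE 0.0900, adjusted p = 0.00166) and 1.25-fold over Teff (log2FC 0.32, SE 0.0898, adjusted p = 0.00887). The call against Teff was lost without Teff replicate 1 (log2FC 0.22, adjusted p = 0.0729) and with library totals alone (log2FC 0.22, adjusted p = 0.0628). In Treg cells Cd3g fell against Naive (log2FC -0.27, SE 0.0903, adjusted p = 0.0233) and against Teff (log2FC -0.32, SE 0.0902, adjusted p = 0.00940), although single libraries overlapped; without Treg replicate 1 neither call held (log2FC -0.22, adjusted p = 0.120 and log2FC -0.27, adjusted p = 0.0571). The first was also lost without Treg replicate 3, Naive replicate 2 or Naive replicate 3, and the second without Teff replicate 2. With library totals alone the first was lost too (log2FC -0.19, adjusted p = 0.119).

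The CD3 genes lie side by side on chromosome 9 in GRCm38, with 1354 bases between Cd3g and Cd3d and 11400 bases between Cd3d and Cd3e. Cd3d, the delta chain, averaged 215 CPM in Anergic, 178 in Treg and 169.7 in Teff cells, against 199 in Naive cells, and its calls were higher in Anergic against Teff (log2FC 0.34, SE 0.0827, adjusted p = 0.00280) and against Treg (log2FC 0.27, SE 0.0823, adjusted p = 0.0121) and lower in Teff against Naive (log2FC -0.23, SE 0.0832, adjusted p = 0.0333). With library totals alone the call against Treg (log2FC 0.14, adjusted p = 0.206) and that of Teff against Naive (log2FC -0.18, adjusted p = 0.108) were both lost. The call against Treg was also lost without Anergic replicate 3 (log2FC 0.23, adjusted p = 0.0528) or Treg replicate 1. That of Teff against Naive was also lost without Teff replicate 1 (log2FC -0.15, adjusted p = 0.197), Naive replicate 2 or Naive replicate 3. Cd247, the zeta chain, averaged 357 CPM in Anergic, 261 in Treg and 275 in Teff cells, against 335 in Naive cells. It rose in Anergic cells against Teff (log2FC 0.38, SE 0.0645, adjusted p = 7.55e-05) and Treg (log2FC 0.45, SE 0.0646, adjusted p = 5.76e-06) but not beyond the spread against Naive (log2FC 0.09, SE 0.0644, adjusted p = 0.258). Of its exon length 56.4% is shared with genes on the opposite strand, so its level is uncertain as the strand setting of the counting is not given.

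Cd4, the coreceptor that brings LCK to the receptor (chr6:124864692-124888221), had 1168, 1199 and 1300.0 CPM in Anergic and 446, 464 and 489 in Treg libraries. Cd4 was at 617, 671 and 671 CPM in Teff and 635, 668 and 726 in Naive libraries. The subsets fell into 3 levels without overlap between them, Anergic highest, Teff and Naive together, and Treg lowest. Cd4 in Anergic cells was 2.62-fold that of Treg (log2FC 1.39, SE 0.0684, adjusted p = 8.7e-14) and 1.81-fold that of Naive cells (log2FC 0.85, SE 0.0675, adjusted p = 1.99e-10). It fell in Treg cells against Naive (log2FC -0.54, SE 0.0678, adjusted p = 7.88e-07) and against Teff (log2FC -0.49, SE 0.0677, adjusted p = 3.93e-06), while Teff and Naive did not differ beyond the spread (log2FC -0.05, SE 0.0674, adjusted p = 0.607).

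Trat1 encodes TRIM, a transmembrane adaptor associated with the TCR and the zeta chain (chr16:48730774-48772021), and was low in Anergic cells. It had 10.1, 23.2 and 24 CPM in Anergic and 43.5, 49.5 and 49.4 in Treg libraries. Trat1 was at 46.4, 60.2 and 67.2 CPM in Teff and 57.6, 58.9 and 56.6 in Naive libraries. All Anergic libraries were below the other 9, and replicate 1 was below the other Anergic ones. Trat1 was 3.04-fold lower in Anergic than in Teff cells (log2FC -1.61, SE 0.176, adjusted p = 1.24e-07), 2.49-fold lower than in Treg (log2FC -1.32, SE 0.178, adjusted p = 2.55e-06) and 3.04-fold lower than in Naive (log2FC -1.60, SE 0.177, adjusted p = 6.1e-08). Over all alternatives the log2 fold change against Teff ran from -1.80 to -1.30. Treg against Naive gave log2FC -0.29, SE 0.158, adjusted p = 0.182.

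The promoter window of Trat1 is shown because Trat1 is the receptor-complex gene that moved against the rest. It is the RefSeq window from 250 bases before to 50 bases after the start site, on the minus strand at chr16:48772013-48772312 (GRCm38.p6), printed 5′ to 3′, and its capitals mark a RUNX core motif, TGTGGT, on the other strand, with its first base at -76 from the start site.
Trat1: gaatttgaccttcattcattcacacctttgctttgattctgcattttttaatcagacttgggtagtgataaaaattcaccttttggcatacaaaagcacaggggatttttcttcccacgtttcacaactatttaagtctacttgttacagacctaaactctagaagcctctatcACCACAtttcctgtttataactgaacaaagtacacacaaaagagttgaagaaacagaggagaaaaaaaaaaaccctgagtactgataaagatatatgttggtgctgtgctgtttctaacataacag
RefSeq windows were at hand for 29 of the 37 genes, 40 windows in all. On either strand TGTGGT was in 8 of the 40 member windows and in 16.8% of 32851 mouse windows, CCGGAA, an ETS core, was in 3 of 40 and in 14.9%, and TGANTCA, the AP-1 site that BATF dimers can also bind, was in 0 of 40 and in 7.81%. A match is a run of letters and does not show binding.

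**Figure D4:**
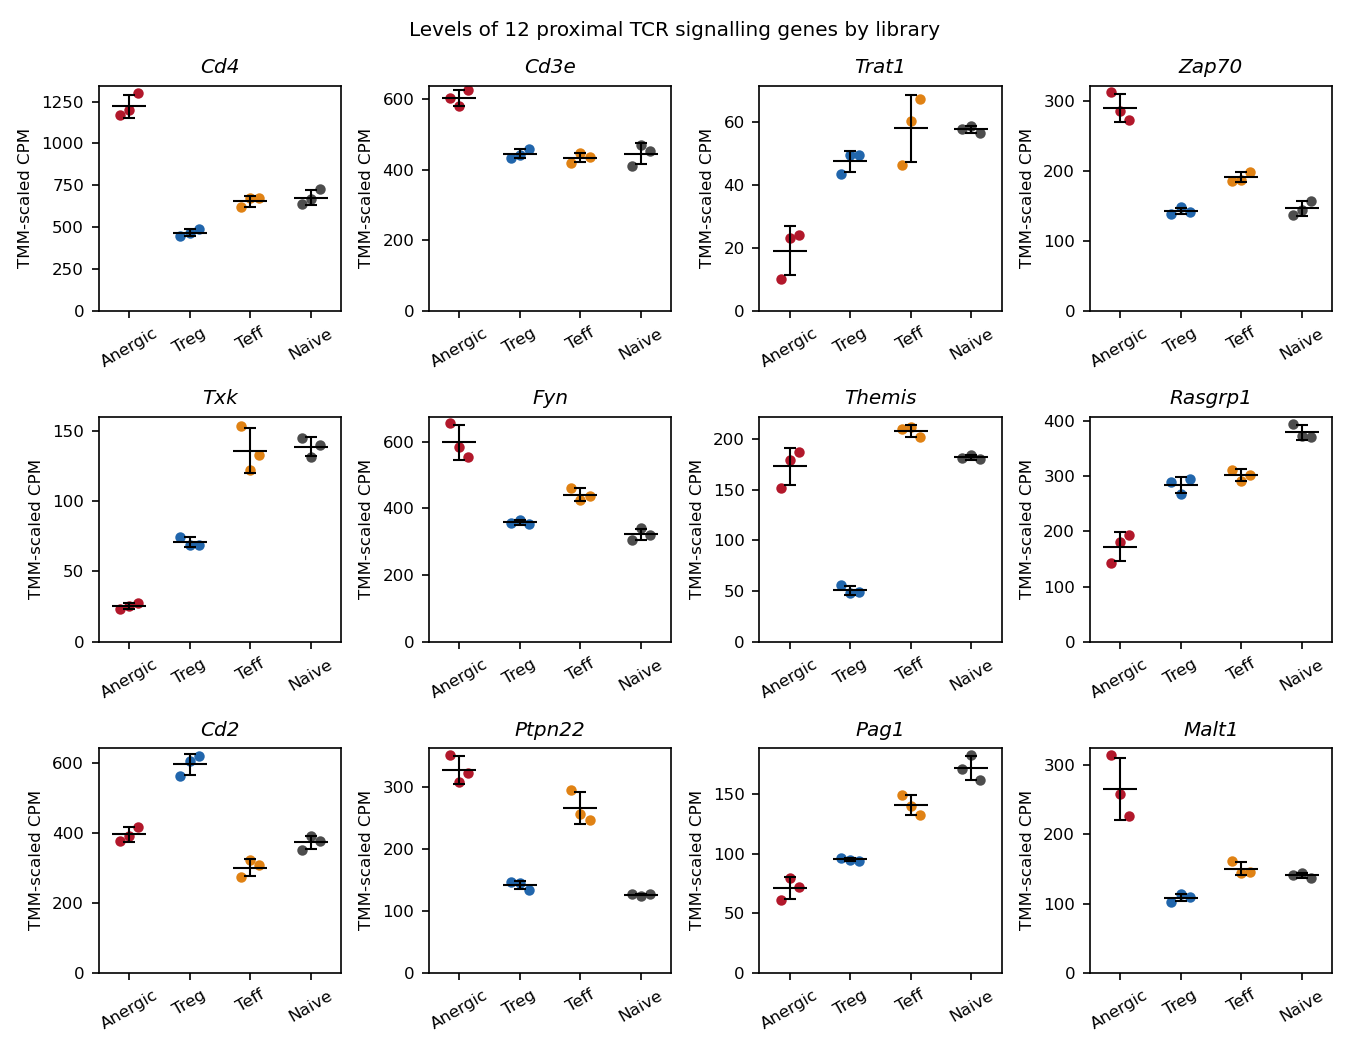
TMM-scaled CPM of 12 of the 37 genes in each of the 12 libraries; points are libraries, the long bar the mean and the whiskers the SD (n = 3 per subset). Txk ran from 23.4 to 27.6 in Anergic libraries, below all others, and Cd4 from 1168 to 1300.0, above all others.

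Among the tyrosine kinases, Zap70 and Fyn rose and the TEC-family kinases Txk and Tec fell in Anergic cells against each other subset. Of the 5 kinases, 2 rose and 2 fell against Teff and against Naive, and 3 rose and 2 fell against Treg. Over all genes 26.6% were called in either direction against Teff, 46.2% against Naive and 31.0% against Treg. Txk encodes RLK, a TEC-family kinase that can phosphorylate phospholipase C gamma 1 (chr5:72695978-72752777). It had 23.4, 25.6 and 27.6 CPM in Anergic and 74.7, 69.0 and 68.5 in Treg libraries. Txk was at 153, 122 and 132 CPM in Teff and 145, 131 and 139.9 in Naive libraries. Anergic libraries were lowest, Treg libraries stood between, and Teff and Naive libraries overlapped at the top. Txk was 5.44-fold lower in Anergic than in Naive cells (log2FC -2.44, SE 0.0896, adjusted p = 1.15e-16), 5.33-fold lower than in Teff (log2FC -2.41, SE 0.0893, adjusted p = 8.82e-16) and 2.78-fold lower than in Treg (log2FC -1.47, SE 0.0921, adjusted p = 5.9e-12). In Treg cells it fell 1.96-fold against Naive (log2FC -0.97, SE 0.0794, adjusted p = 5.89e-10) and 1.92-fold against Teff (log2FC -0.94, SE 0.0790, adjusted p = 1.15e-09). Teff and Naive cells did not differ beyond the spread (log2FC -0.03, SE 0.0764, adjusted p = 0.809).

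The windows of Txk are shown because it had the largest spread between subsets of the 37 genes. RefSeq gives a pair of start sites on the minus strand, at chr5:72752728-72753027 (first line) and chr5:72736553-72736852 (second line), and the capitals in the second mark TGTGGT on the other strand, with its first base at -20.
Txk, first start site: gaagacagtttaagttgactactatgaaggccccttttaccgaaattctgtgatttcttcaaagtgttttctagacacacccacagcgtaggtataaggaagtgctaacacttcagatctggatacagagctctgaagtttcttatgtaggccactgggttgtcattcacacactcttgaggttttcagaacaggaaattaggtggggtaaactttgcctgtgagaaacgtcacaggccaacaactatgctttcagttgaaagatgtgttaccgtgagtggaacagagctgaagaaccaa
Txk, second start site: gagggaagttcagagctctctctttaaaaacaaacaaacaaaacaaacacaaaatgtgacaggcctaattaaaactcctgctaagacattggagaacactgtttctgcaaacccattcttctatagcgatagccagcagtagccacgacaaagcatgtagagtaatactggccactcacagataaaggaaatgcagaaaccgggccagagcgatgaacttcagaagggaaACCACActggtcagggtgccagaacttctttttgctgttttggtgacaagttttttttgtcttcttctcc
The counts are per gene and do not tell the start sites apart.

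Tec, the kinase that names the family (chr5:72755716-72868483), lies 2938 bases from Txk on the same strand. It had 8.12, 8.34 and 6.52 CPM in Anergic and 11.8, 11.0 and 15.5 in Treg libraries. Tec was at 16.8, 13.6 and 14.5 CPM in Teff and 13, 11.3 and 12.6 in Naive libraries. The Anergic libraries were below all others, and the other subsets lay close together. The decrease was 1.95-fold against Teff (log2FC -0.96, SE 0.163, adjusted p = 6.06e-05), 1.66-fold against Treg (log2FC -0.73, SE 0.164, adjusted p = 0.00114) and 1.59-fold against Naive (log2FC -0.67, SE 0.169, adjusted p = 0.00207). With single-digit CPM in Anergic cells, Tec rests on the fewest counts of the 37 genes.

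Zap70, the kinase that docks on the phosphorylated CD3 and zeta chains (chr1:36761798-36782818), had 313, 285 and 272 CPM in Anergic and 139, 148 and 142 in Treg libraries. Zap70 was at 186, 187 and 199 CPM in Teff and 137, 144 and 157 in Naive libraries. Anergic libraries were highest and Teff libraries second, with no overlap, and Treg and Naive libraries overlapped. Zap70 in Anergic cells exceeded Treg by 2.03-fold (log2FC 1.02, SE 0.0681, adjusted p = 1.84e-11) and Naive by 1.98-fold (log2FC 0.99, SE 0.0685, adjusted p = 1.77e-11). In Teff cells it exceeded Naive by 1.30-fold (log2FC 0.38, SE 0.0690, adjusted p = 9.54e-05), and in Treg cells it fell 1.34-fold against Teff (log2FC -0.42, SE 0.0685, adjusted p = 3.48e-05).

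Lck, the kinase bound to CD4 (chr4:129548344-129573641), varied little. It had 558, 582 and 555 CPM in Anergic and 456, 493 and 463 in Treg libraries. Lck was at 489, 529 and 512 CPM in Teff and 528, 583 and 559 in Naive libraries. Anergic and Naive libraries overlapped, as did Teff libraries with Naive and Treg ones. Lck passed the test only for Anergic over Treg (log2FC 0.26, SE 0.0617, adjusted p = 0.00165) and for Treg against Naive, where it was lower (log2FC -0.24, SE 0.0617, adjusted p = 0.00347), and both calls were lost with library totals alone (log2FC 0.13, adjusted p = 0.178 and log2FC -0.16, adjusted p = 0.115). Fyn, the second SRC-family kinase, averaged 598 CPM in Anergic, 358 in Treg and 442 in Teff cells, against 322 in Naive cells, and rose in Anergic cells against Teff (log2FC 0.44, SE 0.0676, adjusted p = 1.97e-05), Treg (log2FC 0.74, SE 0.0680, adjusted p = 5.5e-09) and Naive (log2FC 0.89, SE 0.0685, adjusted p = 1.13e-10).

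Ratios of related genes within a library do not depend on library scaling. For each, subset differences were tested by an exact permutation of the 12 libraries over the subsets, with adjustment over the 4 ratios. The count ratio of Fyn to Lck was 1.06 ± 0.101 in Anergic, 0.761 ± 0.0177 in Treg and 0.868 ± 0.0711 in Teff cells, against 0.579 ± 0.00506 in Naive cells (SD, n = 3; exact permutation p = 6.49e-05, the smallest the design allows, adjusted 0.00013). No library of one subset overlapped another subset in this ratio. The ratio of Tec to Txk was 0.303 ± 0.0584 in Anergic, 0.181 ± 0.0389 in Treg and 0.111 ± 0.00131 in Teff cells, against 0.0885 ± 0.00228 in Naive cells, with the same exact permutation p of 6.49e-05. Although both kinases were lowest in Anergic cells, Txk was lower by more, and the subsets did not overlap in their ratio.

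The adaptors and effectors were mixed, with 1 of 10 higher and 3 lower in Anergic cells against Teff. Against Treg 5 were higher and 3 lower, and against Naive 2 were higher and 2 lower. Over all genes 26.6% were called against Teff, 31.0% against Treg and 46.2% against Naive. The 4 of 10 called against Naive were thus near the background. Of the 5 higher calls against Treg, 3 were lost with library totals alone, those of Nck1 (log2FC 0.12, adjusted p = 0.346), Plcg1 (log2FC 0.18, adjusted p = 0.0868) and Sos1 (log2FC 0.10, adjusted p = 0.516). Nck1 and Sos1 were also lost without Treg replicate 2, Nck1 without Anergic replicate 3 or Treg replicate 3, and Sos1 without Anergic replicate 1 or 2. Sos1 was further lost with DESeq2 (adjusted p = 0.0550) and with no filter on low counts (adjusted p = 0.0686). Vav1 was among the 3 lower calls against Treg (log2FC -0.18, SE 0.0602, adjusted p = 0.0217). That call was lost with no filter on low counts, and without Anergic replicate 3, Treg replicate 1 or Treg replicate 2. In Treg cells 5 of 10 fell against Teff, and 5 fell and 2 rose against Naive. Over all genes 14.1% fell in Treg cells against Teff and 13.9% against Naive. Against Naive 32.8% of all genes were called in either direction in Treg cells. Themis encodes an adaptor of LAT and GRB2 known for its role in thymic selection (chr10:28668360-28883818). It had 152, 179.6 and 187 CPM in Anergic and 55.6, 48.0 and 48.7 in Treg libraries. Themis was at 210.2, 212 and 202 CPM in Teff and 181, 185 and 180.3 in Naive libraries. All Treg libraries were far below the other 9. Themis was 4.09-fold lower in Treg than in Teff cells (log2FC -2.03, SE 0.0790, adjusted p = 7.82e-16) and 3.58-fold lower than in Naive (log2FC -1.84, SE 0.0794, adjusted p = 4.09e-15), and 3.40-fold higher in Anergic than in Treg cells (log2FC 1.76, SE 0.0792, adjusted p = 1.78e-14). Against Teff it was lower in Anergic cells by 1.20-fold (log2FC -0.27, SE 0.0725, adjusted p = 0.00725). The small excess in Teff over Naive cells (log2FC 0.19, SE 0.0726, adjusted p = 0.0429) was lost when any of the Teff or Naive libraries was left out, with adjusted p up to 0.0992 over the alternatives.

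Rasgrp1, the diacylglycerol-activated exchange factor that loads RAS (chr2:117279993-117343001), had 143, 180.1 and 194 CPM in Anergic and 289.5, 268 and 295 in Treg libraries. Rasgrp1 was at 312, 291 and 303 CPM in Teff and 395, 373 and 370.5 in Naive libraries. Anergic libraries were lowest and Naive libraries highest, and Treg and Teff libraries overlapped. It was 2.20-fold lower in Anergic than in Naive cells (log2FC -1.14, SE 0.0819, adjusted p = 3.44e-11), 1.75-fold lower than in Teff (log2FC -0.81, SE 0.0817, adjusted p = 3.35e-08) and 1.65-fold lower than in Treg (log2FC -0.72, SE 0.0816, adjusted p = 1.73e-07). It also fell against Naive in Teff (log2FC -0.33, SE 0.0799, adjusted p = 0.00211) and in Treg (log2FC -0.42, SE 0.0800, adjusted p = 0.000207).

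Lcp2, which encodes the scaffold SLP-76 (chr11:34046920-34092295), ran the other way. It had 386, 355 and 353 CPM in Anergic and 263, 246 and 239 in Treg libraries. Lcp2 was at 279, 266 and 277 CPM in Teff and 203, 196 and 201 in Naive libraries. Anergic libraries were highest and Naive libraries lowest, and Treg and Teff libraries did not overlap, yet their difference missed the threshold (log2FC -0.14, SE 0.0616, adjusted p = 0.108). Lcp2 in Anergic cells exceeded Naive by 1.82-fold (log2FC 0.87, SE 0.0622, adjusted p = 3.31e-11), Treg by 1.46-fold (log2FC 0.55, SE 0.0613, adjusted p = 1.46e-07) and Teff by 1.33-fold (log2FC 0.41, SE 0.0612, adjusted p = 1.16e-05). Teff exceeded Naive by 1.37-fold (log2FC 0.46, SE 0.0624, adjusted p = 2.58e-06) and Treg exceeded Naive by 1.25-fold (log2FC 0.32, SE 0.0624, adjusted p = 0.000251).

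Lat, the membrane scaffold (chr7:126363824-126369570), had 275, 316 and 286 CPM in Anergic and 258, 254 and 252 in Treg libraries. Lat was at 294, 355 and 327 CPM in Teff and 292, 364 and 347 in Naive libraries. The Treg libraries were below all others, and the other subsets overlapped. It fell in Treg cells against Naive (log2FC -0.39, SE 0.0805, adjusted p = 0.000426) and Teff (log2FC -0.35, SE 0.0803, adjusted p = 0.00143), whereas no Anergic comparison passed the test, with adjusted p = 0.173 against Teff, 0.0645 against Treg and 0.0507 against Naive.

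The other adaptors moved by less than 1.5-fold between their highest and lowest subset. Plcg1, phospholipase C gamma 1 itself, was lowest in Treg cells, and fell there against Naive (log2FC -0.26, SE 0.0607, adjusted p = 0.00155) and against Teff (log2FC -0.32, SE 0.0606, adjusted p = 0.000180). Sos1, a RAS exchange factor, likewise fell in Treg cells against Naive (log2FC -0.34, SE 0.0820, adjusted p = 0.00200) and Teff (log2FC -0.33, SE 0.0812, adjusted p = 0.00316). With library totals alone the calls against Naive were lost for Plcg1 (log2FC -0.18, adjusted p = 0.104) and for Sos1 (log2FC -0.26, adjusted p = 0.0623). Sh2d2a, the adaptor TSAd, fell in Anergic cells against Teff (log2FC -0.30, SE 0.0613, adjusted p = 0.000560) and Treg (log2FC -0.25, SE 0.0612, adjusted p = 0.00233) and exceeded Naive cells in Teff (log2FC 0.32, SE 0.0616, adjusted p = 0.000242) and Treg (log2FC 0.27, SE 0.0615, adjusted p = 0.00133). Vav1, the RAC exchange factor, was lower than Naive in Anergic (log2FC -0.33, SE 0.0604, adjusted p = 8.08e-05) and in Teff cells (log2FC -0.22, SE 0.0602, adjusted p = 0.00584), and the call in Teff cells was lost with library totals alone (log2FC -0.17, adjusted p = 0.124). Nck1, an adaptor to the actin cytoskeleton, averaged 47.2 CPM in Anergic, 39.5 in Treg and 47.9 in Teff cells, against 40.2 in Naive cells, and of its 4 calls only that of Treg below Teff (log2FC -0.28, SE 0.0817, adjusted p = 0.0117) held under every alternative. Grb2, the adaptor that carries SOS1 to LAT, averaged 90.5 CPM in Anergic, 84.9 in Treg and 95.1 in Teff cells, against 84.6 in Naive cells, and its smallest adjusted p over the 6 comparisons was 0.0603, for Teff over Naive.

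All 4 modulating surface proteins rose in Anergic cells against Teff, and 3 of 4 rose against Naive. In Treg cells 3 of 4 rose against Teff and 3 of 4 against Naive. Over all genes 26.6% were called in either direction in Anergic cells against Teff and 46.2% against Naive. For Treg cells 29.1% were called in either direction against Teff and 32.8% against Naive. Cd2, an adhesion and costimulatory receptor (chr3:101275899-101287939), had 377, 392 and 418 CPM in Anergic and 563, 606 and 618 in Treg libraries. Cd2 was at 274, 322 and 307 CPM in Teff and 352, 390.2 and 376 in Naive libraries. Treg libraries were highest and Teff libraries lowest, and Anergic and Naive libraries overlapped between them. Cd2 in Treg cells was 1.98-fold that of Teff (log2FC 0.99, SE 0.0699, adjusted p = 5.23e-11) and 1.60-fold that of Naive (log2FC 0.68, SE 0.0695, adjusted p = 2.88e-08). In Anergic cells it was 1.51-fold lower than in Treg (log2FC -0.59, SE 0.0692, adjusted p = 2.97e-07) and 1.32-fold higher than in Teff (log2FC 0.40, SE 0.0699, adjusted p = 0.000108), and Teff cells were below Naive (log2FC -0.31, SE 0.0701, adjusted p = 0.00108).

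Cd5, a surface inhibitor whose level is known to follow the strength of TCR signals (chr19:10717116-10739002), had 364, 358 and 391 CPM in Anergic and 338, 362 and 362 in Treg libraries. Cd5 was at 250.5, 274 and 281 CPM in Teff and 254, 296 and 288 in Naive libraries. Anergic and Treg libraries overlapped each other and stood above all Teff and Naive libraries. Cd5 rose in Anergic cells against Teff (log2FC 0.47, SE 0.0690, adjusted p = 1.11e-05) and Naive (log2FC 0.41, SE 0.0691, adjusted p = 3.03e-05), and in Treg cells against Teff (log2FC 0.40, SE 0.0690, adjusted p = 6.8e-05) and Naive (log2FC 0.34, SE 0.0691, adjusted p = 0.000379). Anergic and Treg cells did not differ beyond the spread (log2FC 0.07, SE 0.0685, adjusted p = 0.504), and nor did Teff and Naive (log2FC -0.06, SE 0.0695, adjusted p = 0.567).

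Cd6, a relative of CD5 that lies 50338 bases from it on chromosome 19 (chr19:10789341-10830058), had 337, 329 and 365 CPM in Anergic and 306, 321 and 328 in Treg libraries. Cd6 was at 273, 274 and 279.6 CPM in Teff and 259, 262 and 286 in Naive libraries. As with Cd5, all Anergic and Treg libraries were above all Teff and Naive ones. Cd6 rose in Anergic cells against Teff (log2FC 0.32, SE 0.0629, adjusted p = 0.000368) and Naive (log2FC 0.35, SE 0.0631, adjusted p = 5.93e-05) and in Treg cells against Naive (log2FC 0.24, SE 0.0631, adjusted p = 0.00432). Its excess in Treg over Teff cells (log2FC 0.21, SE 0.0629, adjusted p = 0.0140) was lost without Treg replicate 2 (log2FC 0.20, adjusted p = 0.0534) or Treg replicate 3. Ptprc, which encodes the phosphatase CD45, averaged 2026 CPM in Anergic, 1691 in Treg and 1793 in Teff cells, against 1695 in Naive cells and rose in Anergic cells against Naive (log2FC 0.26, SE 0.0605, adjusted p = 0.00111). Its call against Teff was lost under 8 of 21 alternatives, among them each of the 3 Teff libraries and Anergic replicates 2 and 3 left out in turn, with adjusted p up to 0.433.

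The negative regulators did not move as a group. In Anergic cells 3 of 9 rose and 3 fell against Teff, 3 rose and 2 fell against Treg, and 4 rose and 3 fell against Naive. Over all genes 26.6% were called against Teff, 31.0% against Treg and 46.2% against Naive. All 3 higher calls against Teff, those of Ptpn22, Ubash3a (log2FC 0.16, adjusted p = 0.123) and Ubash3b (log2FC 0.21, adjusted p = 0.179), were lost with library totals alone, and that of Ubash3b also without Anergic replicate 1, Teff replicate 2 or Teff replicate 3. Pag1 encodes CBP/PAG, the membrane adaptor that recruits the inhibitory kinase CSK (chr3:9687479-9833679), and was the single gene of the 37 called in all 6 comparisons. It had 61.4, 79.7 and 72.0 CPM in Anergic and 96.4, 95 and 94.3 in Treg libraries. Pag1 was at 149.7, 140.1 and 133 CPM in Teff and 171, 183 and 162 in Naive libraries. The 4 subsets did not overlap, in the order Anergic, Treg, Teff, Naive from low to high. Pag1 was 2.42-fold lower in Anergic than in Naive cells (log2FC -1.28, SE 0.0799, adjusted p = 2.64e-12), 1.98-fold lower than in Teff (log2FC -0.99, SE 0.0800, adjusted p = 7.49e-10) and 1.34-fold lower than in Treg (log2FC -0.42, SE 0.0811, adjusted p = 0.000225). In Treg cells it fell 1.81-fold against Naive (log2FC -0.85, SE 0.0777, adjusted p = 3.64e-09) and 1.48-fold against Teff (log2FC -0.56, SE 0.0779, adjusted p = 3.31e-06). The step between Teff and Naive cells (log2FC -0.29, SE 0.0761, adjusted p = 0.00428) missed the threshold with library totals alone (log2FC -0.24, adjusted p = 0.0507). Csk itself averaged 241 CPM in Anergic, 243 in Treg and 254 in Teff cells, against 241 in Naive cells, and its smallest adjusted p over the 6 comparisons was 0.435, for Teff over Naive.

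Ptpn22 encodes the phosphatase PEP, which acts on LCK and ZAP-70 together with CSK (chr3:103859795-103912247). It had 352, 307 and 322 CPM in Anergic and 147, 145 and 134 in Treg libraries. Ptpn22 was at 295, 257 and 246 CPM in Teff and 127, 125 and 127 in Naive libraries. Anergic and Teff libraries were high, without overlap, and all of them stood above Treg and Naive libraries. Ptpn22 rose in Anergic cells 2.59-fold against Naive (log2FC 1.37, SE 0.0737, adjusted p = 1.51e-13) and 2.31-fold against Treg (log2FC 1.21, SE 0.0726, adjusted p = 3e-12), and in Teff cells 2.11-fold against Naive (log2FC 1.08, SE 0.0737, adjusted p = 2.3e-11). Treg cells were 1.88-fold below Teff (log2FC -0.91, SE 0.0726, adjusted p = 4.53e-10). The smaller excess in Anergic over Teff cells (log2FC 0.30, SE 0.0706, adjusted p = 0.00245) was lost with library totals alone (log2FC 0.20, adjusted p = 0.100).

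Ptpn22 has a pair of RefSeq windows, and the one with motifs is shown because it held TGTGGT at more places than any other member window. It lies on the plus strand at chr3:103860027-103860326, and the capitals mark 3 matches on the other strand, with first bases at -165, -48 and 9 from the start site.
Ptpn22: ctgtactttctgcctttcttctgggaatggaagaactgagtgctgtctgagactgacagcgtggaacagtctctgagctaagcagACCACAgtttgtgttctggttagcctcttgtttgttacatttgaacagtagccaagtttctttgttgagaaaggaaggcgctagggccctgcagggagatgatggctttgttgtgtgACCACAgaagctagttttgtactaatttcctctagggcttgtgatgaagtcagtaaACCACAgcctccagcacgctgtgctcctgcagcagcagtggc

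Sla, the adaptor SLAP, which promotes the breakdown of TCR chains (chr15:66780819-66831829), had 241, 230.1 and 225 CPM in Anergic and 204, 201 and 203 in Treg libraries. Sla was at 243, 233 and 219.8 CPM in Teff and 109, 114 and 116 in Naive libraries. All Naive libraries were far below the other 9, which lay close together. Sla exceeded Naive by 2.06-fold in Anergic (log2FC 1.04, SE 0.0628, adjusted p = 1.4e-12), by 1.80-fold in Treg (log2FC 0.85, SE 0.0628, adjusted p = 9.68e-11) and by 2.05-fold in Teff cells (log2FC 1.04, SE 0.0628, adjusted p = 2.49e-12). The calls of Anergic above Treg (log2FC 0.19, SE 0.0604, adjusted p = 0.0162) and of Treg below Teff (log2FC -0.19, SE 0.0604, adjusted p = 0.0180) were both lost with library totals alone (log2FC 0.06, adjusted p = 0.581 and log2FC -0.16, adjusted p = 0.141), and also without Anergic replicate 1 for the first and Teff replicate 1 for the second. Its relative Sla2, SLAP-2, averaged 28.8 CPM in Anergic, 31.8 in Treg and 37.3 in Teff cells, against 41.3 in Naive cells, so that the count ratio of Sla2 to Sla was 0.124 ± 0.00287 in Anergic, 0.157 ± 0.0116 in Treg and 0.161 ± 0.00948 in Teff cells, against 0.366 ± 0.0260 in Naive cells (SD, n = 3; exact permutation p = 0.00039, adjusted 0.000519). Of the exon length of Sla2 23.6% is shared with a gene on the opposite strand, so its counts are uncertain.

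Ubash3a and Ubash3b encode STS-2 and STS-1, phosphatase-related proteins that damp ZAP-70 signalling. Ubash3b averaged 55.5 CPM in Anergic, 60.2 in Treg and 44.6 in Teff cells, against 30.5 in Naive cells, and rose against Naive in Anergic (log2FC 0.86, SE 0.102, adjusted p = 1.9e-07), Treg (log2FC 0.98, SE 0.101, adjusted p = 3.22e-08) and Teff cells (log2FC 0.55, SE 0.104, adjusted p = 0.000187). Ubash3a averaged 129 CPM in Anergic, 129 in Treg and 107 in Teff cells, against 101 in Naive cells and rose against Naive in Anergic (log2FC 0.34, SE 0.0690, adjusted p = 0.000254) and Treg cells (log2FC 0.34, SE 0.0688, adjusted p = 0.000323). The ratio of Ubash3b to Ubash3a was 0.437 ± 0.0975 in Anergic, 0.467 ± 0.0228 in Treg and 0.417 ± 0.0448 in Teff cells, against 0.300 ± 0.0243 in Naive cells (SD, n = 3; exact permutation p = 0.0145, adjusted 0.0145), and the adjusted p became 0.0651 without Naive replicate 3.

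**Figure D5:**
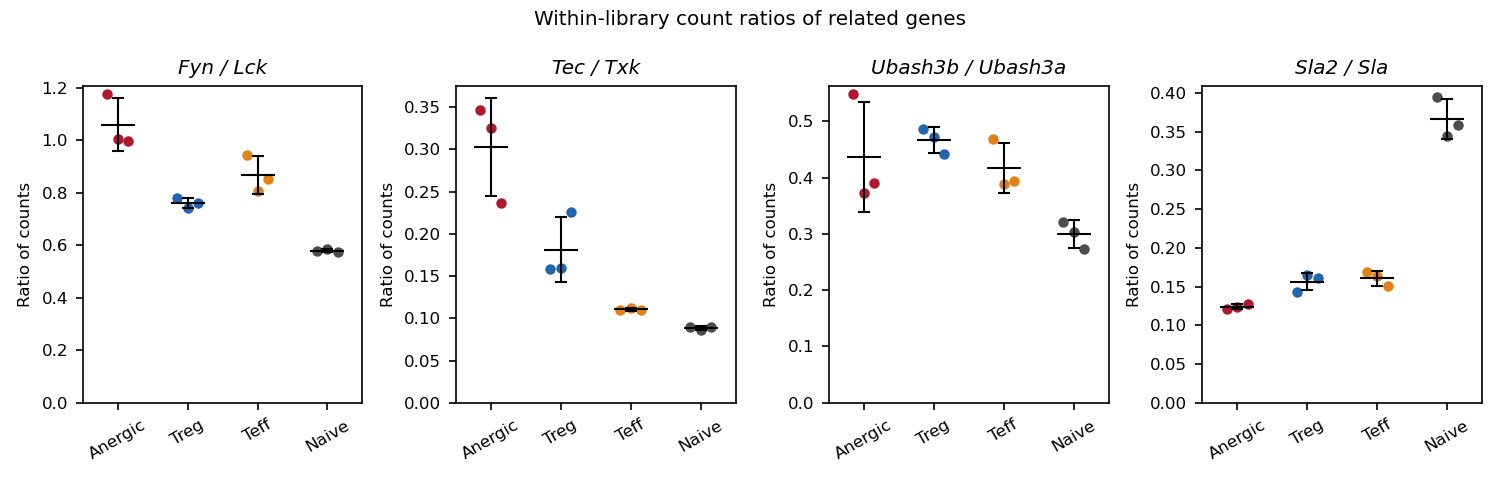
Within-library count ratios of 4 pairs of related genes; points are libraries, the long bar the mean and the whiskers the SD (n = 3 per subset). Fyn to Lck and Tec to Txk are highest in Anergic libraries, and Sla2 to Sla is highest in Naive libraries.

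Ptpn2, a phosphatase of SRC-family kinases and of cytokine signalling, averaged 40.2 CPM in Anergic, 48.7 in Treg and 54.3 in Teff cells, against 47.0 in Naive cells and was lower in Anergic than in Teff cells (log2FC -0.43, SE 0.0883, adjusted p = 0.000554). Its calls in Anergic against Treg (log2FC -0.27, SE 0.0887, adjusted p = 0.0200) and Naive (log2FC -0.23, SE 0.0905, adjusted p = 0.0435) did not hold without Anergic replicate 1 or Anergic replicate 3. The first was also lost without Treg replicate 2, and the second without Treg replicate 1, Teff replicate 3, Naive replicate 2 or Naive replicate 3. Without Anergic replicate 3 they gave log2FC -0.26, adjusted p = 0.0536 and log2FC -0.22, adjusted p = 0.0901. Ptpn6, which encodes the phosphatase SHP-1, averaged 282 CPM in Anergic, 208 in Treg and 237 in Teff cells, against 253 in Naive cells and was higher in Anergic than in Treg cells (log2FC 0.44, SE 0.0986, adjusted p = 0.00106).

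In the branch from PKC-theta to NF-kB, Malt1 and Prkcq moved in opposite directions in Anergic cells and Bcl10 was called in no comparison. Malt1, the paracaspase that works with BCL10 (chr18:65430938-65479067), had 314, 258 and 226 CPM in Anergic and 103, 114 and 109.7 in Treg libraries. Malt1 was at 161, 144 and 146 CPM in Teff and 142, 144 and 137 in Naive libraries. Anergic libraries were highest though spread, and Treg libraries lowest. Malt1 in Anergic cells exceeded Treg by 2.45-fold (log2FC 1.29, SE 0.0878, adjusted p = 2.7e-11), Naive by 1.89-fold (log2FC 0.92, SE 0.0871, adjusted p = 4.86e-09) and Teff by 1.77-fold (log2FC 0.82, SE 0.0863, adjusted p = 5.92e-08). In Treg cells it fell against Teff (log2FC -0.47, SE 0.0888, adjusted p = 0.000206) and against Naive (log2FC -0.38, SE 0.0895, adjusted p = 0.00193); the second call missed the threshold with library totals alone (log2FC -0.29, adjusted p = 0.0512).

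Prkcq, protein kinase C theta (chr2:11172108-11301222), had 309, 308 and 307 CPM in Anergic and 373, 389 and 382 in Treg libraries. Prkcq was at 377, 344 and 350.1 CPM in Teff and 421, 411 and 418 in Naive libraries. The 3 Anergic libraries were nearly equal and below all others, and the Naive ones were highest. The decrease in Anergic cells was 1.35-fold against Naive (log2FC -0.44, SE 0.0587, adjusted p = 1.33e-06), 1.24-fold against Treg (log2FC -0.31, SE 0.0586, adjusted p = 0.000213) and 1.16-fold against Teff (log2FC -0.21, SE 0.0587, adjusted p = 0.00807). Teff cells were below Naive (log2FC -0.22, SE 0.0585, adjusted p = 0.00413), a call lost with library totals alone (log2FC -0.17, adjusted p = 0.0902). Bcl10, the adaptor that works with MALT1, averaged 41.6 CPM in Anergic, 43.0 in Treg and 38.2 in Teff cells, against 39.7 in Naive cells, and its smallest adjusted p over the 6 comparisons was 0.179, for Treg over Teff.

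Beyond the 37 genes, 57 further genes of the TCR pathway were taken from a list, of which 56 could be tested. In Anergic cells 12 rose and 19 fell against Teff, 31 of the 56 beside 26.6% of all genes. Against Treg 18 rose and 15 fell, 33 of the 56 beside 31.0%, and against Naive 25 rose and 16 fell, 41 of the 56 beside 46.2%. The list is not matched to all genes in abundance. Ptpn11, the phosphatase SHP-2, was 3.2-fold higher in Anergic than in Teff cells (382 against 119 CPM; log2FC 1.68, SE 0.0760, adjusted p = 2.15e-14) and 4.54-fold higher than in Treg (382 against 84.1 CPM; log2FC 2.18, SE 0.0779, adjusted p = 2.78e-16). Lax1, a transmembrane adaptor that restrains the signal, was 2.98-fold higher in Anergic than in Treg cells (log2FC 1.58, SE 0.0759, adjusted p = 5.95e-14). Dok2, an adaptor that dampens RAS, was 2.24-fold lower in Anergic than in Teff (log2FC -1.16, SE 0.0751, adjusted p = 1.37e-11), and Pik3ap1, a PI3-kinase adaptor, 4.41-fold lower (log2FC -2.14, SE 0.217, adjusted p = 3.51e-08). Against Treg the lowest were Pik3r1, the PI3-kinase regulatory subunit (log2FC -1.04, SE 0.0806, adjusted p = 3.02e-10), and Vav2, a relative of VAV1 (log2FC -1.57, SE 0.0844, adjusted p = 3.83e-13). Against Naive, Ptprj, the phosphatase CD148, rose 22.5-fold (28.0 against 1.22 CPM; log2FC 4.49, SE 0.210, adjusted p = 1.15e-14) and Pik3ap1 9.54-fold against a Naive level near 0 (log2FC 3.25, SE 0.405, adjusted p = 3.9e-07). Grap2, which encodes GADS, the link between LAT and SLP-76, was 2.84-fold lower in Anergic than in Naive cells (log2FC -1.51, SE 0.0726, adjusted p = 1.96e-14), and Sit1, a TCR-associated adaptor, 2.39-fold lower (log2FC -1.26, SE 0.100, adjusted p = 2.21e-10).

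In the other comparisons 21 of the 56 rose and 7 fell in Teff against Naive, beside 34.9% of all genes called. In Treg cells 20 rose and 13 fell against Naive, beside 32.8%, and 9 rose and 21 fell against Teff, beside 29.1%. Ptprj and Pik3ap1 were again the highest against Naive, in Teff (log2FC 4.26, SE 0.215, adjusted p = 8.29e-14 and log2FC 5.40, SE 0.329, adjusted p = 2.91e-12) and in Treg (log2FC 4.62, SE 0.207, adjusted p = 7.98e-15 and log2FC 2.90, SE 0.420, adjusted p = 5.89e-06). Among the lowest against Naive was Grap2, 1.78-fold lower in Treg (log2FC -0.83, SE 0.0706, adjusted p = 1.18e-09) and 1.61-fold lower in Teff (log2FC -0.68, SE 0.0705, adjusted p = 3.07e-08). In Treg against Teff cells Vav2 (log2FC 2.29, SE 0.0903, adjusted p = 9.69e-16) and Rhoh, a GTPase that helps bring ZAP-70 to the receptor (log2FC 1.0, SE 0.0732, adjusted p = 1e-10), were the highest, and Pik3ap1 (log2FC -2.5, SE 0.223, adjusted p = 3.13e-09) and Lax1 (log2FC -0.85, SE 0.0777, adjusted p = 4.57e-09) the lowest.

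Of the TCR constant genes, 4 of 4 rose in Anergic cells against Teff, 3 of 4 against Treg and 2 of 4 against Naive. Over all genes 13.9%, 15.6% and 25.0% rose in these comparisons. In each comparison without Anergic cells 1 of the 4 fell. The shares of all genes that fell were 15.7% in Teff against Naive, 13.9% in Treg against Naive and 14.1% in Treg against Teff. Trdc, the constant gene of the delta chain, averaged 5.12 CPM in Anergic cells against 2.34 in Teff cells (log2FC 1.11, SE 0.375, adjusted p = 0.0296), and this call was lost without Anergic replicate 3, Teff replicate 1 or Teff replicate 3, with adjusted p up to 0.355. Reads of the near-identical genes Trbc1 and Trbc2 may be split between them.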

How the data were processed

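RNA was measured in 12 libraries, 3 per subset. Per the labels' protocols, a QIAGEN RNeasy kit gave the RNA and a stranded Takara SMARTer total RNA kit the libraries. The values deposited by the authors are raw counts per gene. Per the series design text they were made with Trimmomatic, HISAT2, SAMtools and featureCounts; reads were aligned to GRCm38 (mm10), per the submitters' processing notes. Which annotation and strand setting featureCounts used is not given in the sources used here. Reads of genes overlapping on opposite strands may therefore be assigned to either.

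Of 54532 entries none lacked a gene name, and 53719 (98.5%) matched 1 gene of a GENCODE annotation of GRCm38, from which positions and exon lengths were taken. No replicate pair agreed within sampling noise (chi-square over its degrees of freedom 2.28 to 24.2). Member genes had 49 to 17537 counts per library.

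The test was the quasi-likelihood F test of edgeR 4.0.16 (R 4.3.3, glmQLFit and glmQLFTest, TMM scaling, filterByExpr, subset means over all 12 libraries, common biological coefficient of variation 0.0764), two-sided, with Benjamini-Hochberg adjustment over 13393 genes and a threshold of 0.05. The standard error is the size of the log2 fold change divided by the square root of F. On data simulated for Anergic against Teff over 12639 genes, 94.9% of 98 genes changed 2-fold and 100% of 96 changed 4-fold were found, with 8 false calls. Ratios were log2 of counts plus 0.5 and were tested by an exact permutation F test over 369600 arrangements, adjusted over 4 ratios.

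Alternatives were DESeq2 1.42.0, limma 3.58.1 voom, DESeq2 size factors, library totals, removal of 9 abundant entries, no filter, 5 CPM in 3 libraries, fits of 2 subsets only, a replicate block, and each library left out in turn. Every library's value is given for up to 3 genes per role with the largest called log2 fold change, and for Cd3e, Cd4, Lck, Zap70 and Lat. From the pathway list up to 2 highest and 2 lowest called genes per comparison are named. A gene that this rule names is not reported here. The members and lists were chosen with earlier results of these data known. Promoter windows are from RefSeq (GRCm38.p6); 8 of the 37 genes had none in the table used.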

Additional observations from a re-analysis of the deposited data

How the results depend on the processing

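Of the 135 calls among the 37 genes, 104 held under all 21 alternatives and 31 were lost under at least 1, of which 24 were lost with library totals alone. The largest log2 fold change among the lost calls was 0.38 in size. A further 21 results that had not passed did so under some alternative, the largest 0.29 in size, and no called result changed its direction. The count of members called stayed within 1.5 times that of the report under every alternative in each of the 6 comparisons. The ratio of Ubash3b to Ubash3a lost its call without Naive replicate 3 (exact permutation test, adjusted p = 0.0651); over the 12 left-out libraries the span of its log2 subset means ran from 0.58 to 0.69. Deviations from the subset means were correlated between libraries of different subsets. The correlation ran from -0.0485 to 0.184 for same-numbered libraries, with 4 of 18 pairs over 0.1, and from -0.199 to 0.171 for the others. Of the 12 libraries 10 correlated best with a library of their own number, so the numbers may pair the samples. The main test did not use such a pairing. With the replicate block the members called numbered 29 for Anergic over Teff, 29 for Anergic over Treg and 26 for Anergic over Naive. They numbered 19 for Teff over Naive, 26 for Treg over Naive and 23 for Treg over Teff. Each count was above that of the main test. Calls over all genes rose as well. They went from 3566 to 3987 for Anergic over Teff, and from 4150 to 4610 for Anergic over Treg. For Anergic over Naive they went from 6193 to 6548, and for Teff over Naive from 4670 to 5077. For Treg they went from 4396 to 4796 over Naive and from 3894 to 4343 over Teff. Depth limits Tec most, which had the lowest level of the 37 genes.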
